A study of Mus musculus with 4 samples.

Results

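Cadherins are cell-surface adhesion proteins built from repeated calcium-binding extracellular domains. The genes described here are the classical cadherins (Cdh), the atypical and cadherin-related genes (Cdh13, Cdhr and others), the non-clustered protocadherins (Pcdh followed by a number) and the giant cadherins of planar cell polarity (Celsr, Fat and Dachsous). They were taken by gene name alone. The rule found 47 of the 27293 genes counted in 4 libraries, and 1 more, Cdh1, in a table of WT 1 and cKO 1. The clustered protocadherins were not included.

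The study asked what loss of STING, an adaptor protein of cytosolic DNA sensing, does in the developing cortex. RNA was extracted from telencephalic tissue (cerebral cortex) of C57BL/6 embryos at embryonic day 13. Of the 4 libraries, 2 were labelled WT (WT 1 and WT 2) and 2 were labelled STINGf/f;Nestin-Cre (cKO 1 and cKO 2). The Nestin promoter drives Cre in neural progenitors and their offspring, while the dissected tissue also holds vessels and other cells. The title of WT 2 also differs from that of WT 1 and carries "nes", which the sources used here do not explain. Nothing in the labels says whether a library is 1 embryo or a pool, so any p-value measures the spread between these libraries only.

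The gene for STING itself, Tmem173, was read 20 and 19 times in the libraries WT 1 and WT 2 and 18 and 22 times in cKO 1 and cKO 2. The libraries labelled cKO were not lower (log2 fold change 0.02, SE 0.45). Counts over the whole gene do not show which exons were read, and the names WT and cKO stand for the labels throughout. The libraries held 17209654 (WT 1), 18533391 (WT 2), 18237989 (cKO 1) and 18091688 (cKO 2) counted reads, so that 3 counts, the most a count of 0 allows, equal 0.162 to 0.174 CPM, the count scaled to library size. Markers of cortical neurons summed to 5397 to 6394 CPM and those of cortical progenitors to 1383 to 1519 CPM in all libraries. WT 1 stood apart by markers of tissue beside the cortex. The 8 markers of meninges and mesenchyme summed to 299 CPM in WT 1 and to 45.0 to 82.9 CPM in the other libraries. The 6 choroid plexus markers counted in all 4 libraries summed to 42.6 CPM in WT 1 and to 6.34 to 8.74 CPM in the others, with Folr1 at 0 counts in WT 2 and Kcnj13 at 0 in cKO 2. Reads on 4 genes of the Y chromosome (Uty, Kdm5d, Ddx3y, Eif2s3y) summed to 2735 in WT 1, none (0) in WT 2, and 3002 and 1848 in cKO 1 and cKO 2.

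Classical cadherins bind their own kind on a neighbouring cell and are tied to actin by catenins. Neural progenitors of the cortex hold together at the ventricular surface by N-cadherin (Cdh2), while E-cadherin (Cdh1) and P-cadherin (Cdh3) belong to epithelia. Type II cadherins and delta-protocadherins are expressed in combinations that differ between brain areas and nuclei. Fat4 and Dchs1 bind each other, and the Celsr proteins carry planar polarity and guide axon tracts.

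The stretches below are shown because the member with the largest difference, Cdh3, and Cdh1 are both of type I and hold the tripeptide histidine, alanine, valine, which is known from the first adhesive domain of many type I cadherins. A search of the longest coding sequence of each of 48 genes found this tripeptide, followed after 2 codons by asparagine and glycine, in 4 of them: Cdh1, Cdh2, Cdh3 and Cdh4. The type I gene Cdh15 did not hold it. The pattern searched for in type II cadherins was glutamine, any 2 residues, aspartate, arginine, any residue, threonine and asparagine. It was found in 4 of the 13 type II genes: Cdh7, Cdh11, Cdh18 and Cdh22. The tripeptide was glutamine, alanine, valine in Cdh11, with leucine, isoleucine or arginine in place of valine in Cdh7, Cdh18 and Cdh22. Glutamine tripeptides outside this pattern were not searched for. Each stretch has 45 bases from GENCODE M21 transcripts, 5′ to 3′ on the coding strand, with the codons of the tripeptide in capitals. Coordinates are GRCm38 and span an intron for the first 3 genes, whose stretch runs from exon 5 into exon 6. The Cdh11 stretch lies in exon 4.
Cdh1, chr8:106653914-106656862, + strand: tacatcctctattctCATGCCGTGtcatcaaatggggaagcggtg
Cdh3, chr8:106536966-106537112, + strand: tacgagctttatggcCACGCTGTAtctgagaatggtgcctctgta
Cdh4, chr2:179843119-179847258, + strand: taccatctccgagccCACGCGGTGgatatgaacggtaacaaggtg
Cdh11, chr8:102673921-102673965, - strand: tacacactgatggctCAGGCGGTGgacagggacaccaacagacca

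Most of the family was expressed in the dissected E13 tissue, which also holds cells from outside the cortex. Of the 47 genes, 24 had a mean above 10 CPM, 10 lay between 1 and 10 CPM, and 13 were at or below 1 CPM. At least 10 reads were counted in every library for 36 genes, while 5 had 0 counts in some library. Divided by exon length, the 10 highest genes held 76.6% of the summed level of the family, from 74.9% in WT 1 to 78.9% in cKO 2.

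**Figure D1:**
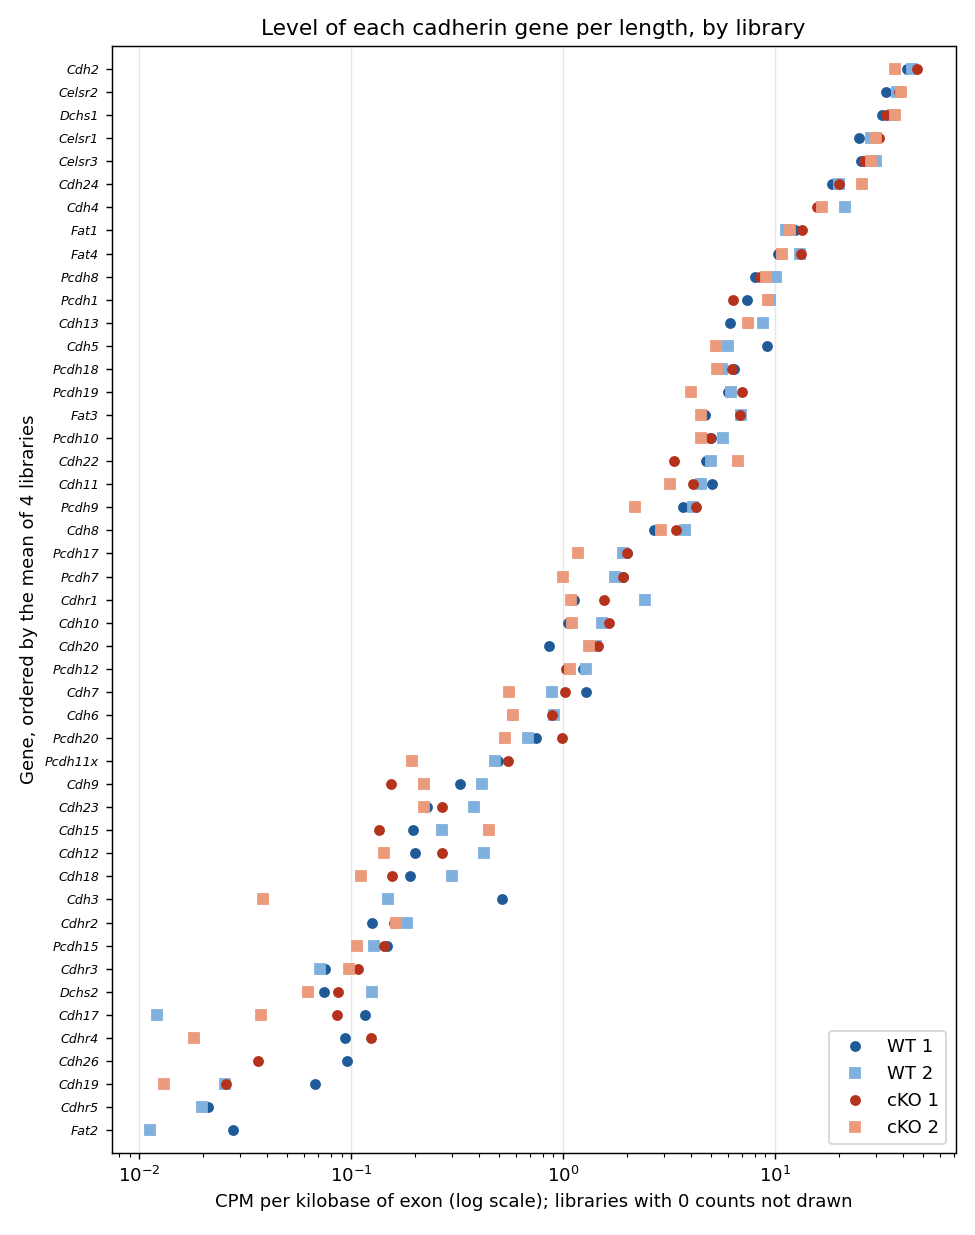
Level of each of the 47 cadherin genes in CPM per kilobase of exon (log axis), with 1 point for each library and libraries at 0 counts left out. Cdh2 is highest at a mean of 42.4, the 4 libraries lie close together for the high genes, and they spread widely for genes such as Cdh3 and Cdh17 that rest on few reads.

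Cdh2 was highest per length, with 41.9 and 44.3 CPM per kilobase in the WT libraries, 46.8 in cKO 1 and 36.7 in cKO 2. Next came Celsr2 (mean 37.1), Dchs1 (34.5), Celsr1 (28.5) and Celsr3 (27.5 CPM per kilobase). Neighbours among these 5 genes overlapped in their library values, apart from Dchs1 and Celsr1, whose ranges of 32.0 to 36.8 and 25.0 to 31.0 did not. Cdh24, a type II cadherin, followed at 21.1 and Cdh4 (R-cadherin) at 17.5 CPM per kilobase, again with overlapping ranges. Fat1 at 12.2 and Fat4 at 11.9 CPM per kilobase could not be separated, and both lay below every library of Cdh4. Pcdh8 closed the list at 8.90, with its highest library (10.1) below the lowest of Fat4 (10.3). These 10 genes therefore include 2 of the type I, 1 of the type II, 1 protocadherin, 3 of the Fat and Dachsous group and all 3 Celsr genes.

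WT and cKO were compared with edgeR over all 16145 genes that passed a filter on low counts, which kept 40 of the 47 cadherin genes. The study called genes that differed 2-fold or more with an unadjusted p up to 0.05. At these thresholds, 1 cadherin gene (Cdh3) was lower in the libraries labelled cKO, where 108 of all genes tested (0.669%) were lower. None was higher, where 23 of all genes (0.142%) were higher. Cdh3 passed the filter through its WT counts only (39 and 12, against 0 and 3 in cKO), so its call is not independent of the filter. No cadherin gene had an adjusted p under 0.05, and neither did any other gene by edgeR (0.0%) or by DESeq2. At an unadjusted p under 0.05, edgeR gave 2 of the 40 cadherin genes (Cdh3 and Cdh5) and 199 genes in all, or 1.23%. Cdh5 was close to the limit, at 0.0498 by edgeR. It was over 0.05 with other scalings (0.0519 and 0.0538 by edgeR), with 10 counts in every library and by DESeq2. Without the filter and with a replicate block it was under 0.05. Log2 fold changes were below 0 for 27 and above 0 for 13 cadherin genes, with a median of -0.09, beside -0.01 over all genes tested, of which 52.1% were below 0. The cKO libraries were both below the WT libraries for 7 of the 40 (Cdh3, Cdh5, Cdh9, Cdh11, Cdh18, Pcdh10 and Pcdh12), where 10.8% of all genes did so, and above both for Celsr1 and Celsr2, where 11.0% did so. In this fit every cadherin gene tested had an adjusted p of 0.9999 from edgeR. The settings in which Cdh3 had a lower one are given beside it. The median moved to 0.04 without WT 2 and to 0.02 without cKO 2, and to -0.22 without WT 1 and -0.24 without cKO 1.

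**Figure D2:**
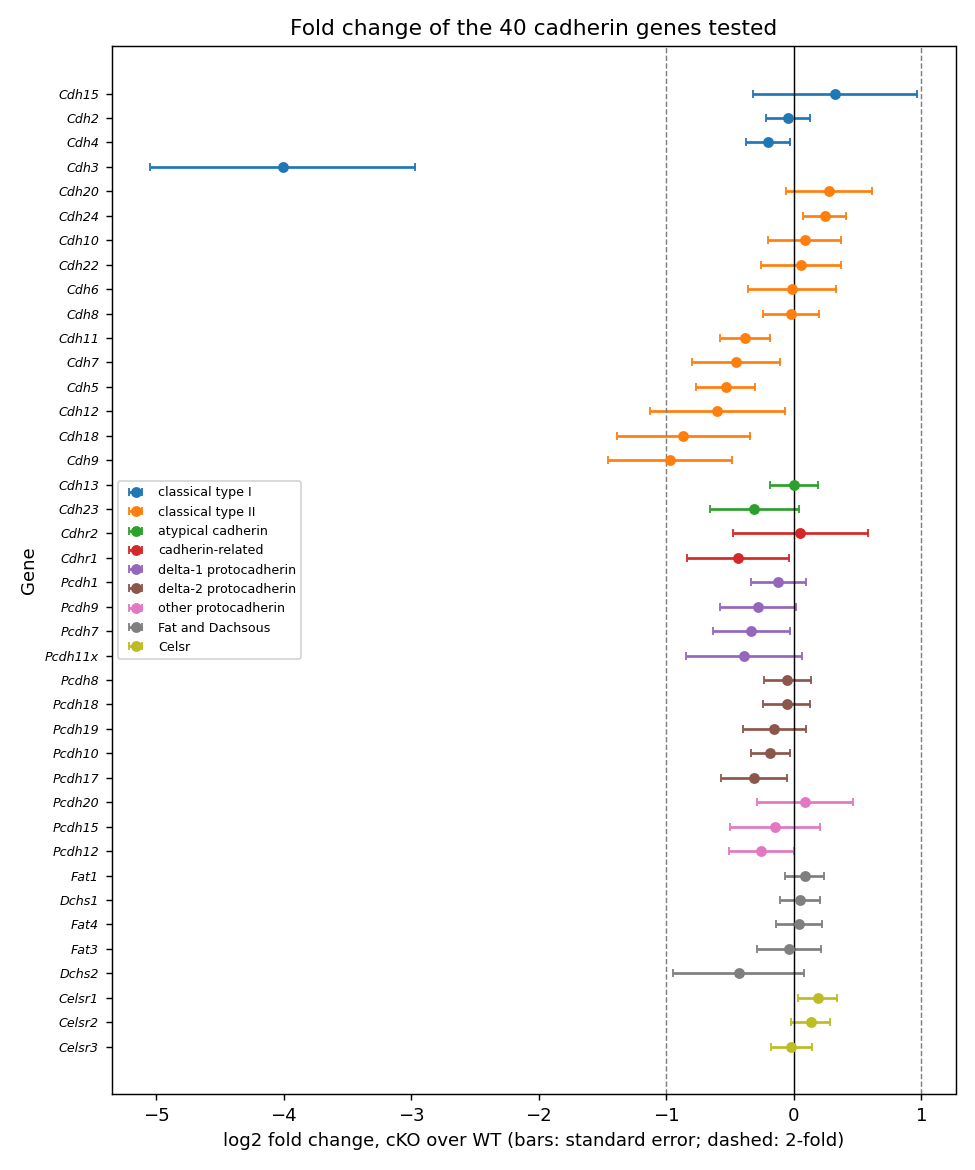
Log2 fold change of cKO over WT from edgeR for the 40 cadherin genes tested, coloured by subfamily, with bars for the standard error and dashed lines at a 2-fold change. Cdh3 at -4.01 is the only gene outside the dashed lines, and the other genes lie between -0.97 and 0.33.

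Among the type I cadherins, the abundant members differed little between the groups and the rare P-cadherin gene was lower in the libraries labelled cKO, whose Tmem173 counts were not. Cdh2 had 5876 and 6582 counts in WT 1 and WT 2, and 6905 and 5295 in cKO 1 and cKO 2. The cKO libraries held both the highest and the lowest value, and the log2 fold change was -0.05 (SE 0.17). Cdh4, which is closely related to Cdh2, had 2037, 2842, 2103 and 2156 counts in the same order, with WT 2 above the other libraries (log2 fold change -0.20, SE 0.17). Cdh15 (M-cadherin), best known from muscle, had 11, 16, 8 and 26 counts, and its log2 fold change of 0.33 (SE 0.64), the largest above 0 in the family, turned to -0.76 without cKO 2.

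Cdh3 (ENSMUSG00000061048, chr8:106510891-106557297, + strand) was covered by 39 reads in WT 1 and 12 in WT 2, against 0 in cKO 1 and 3 in cKO 2. In CPM this was 1.45 ± 1.13 in WT and 0.0839 ± 0.119 in cKO (SD, n = 2 each). The groups did not overlap, but WT 1 held most of the reads. The 51 WT counts against 3 cKO counts gave a ratio of 17.3 (95% exact interval 5.59 to 86.6, counting error only), and WT 2 alone against both cKO libraries gave 7.84 (2.12 to 43.3). The edgeR log2 fold change was -4.01 (SE 1.04, adjusted p = 0.9999, unadjusted p = 0.0049), and it was -2.87 without WT 1 and -4.63 without WT 2. The adjusted p of Cdh3 by edgeR was 0.000479 without the filter on low counts and 0.000851 without WT 2, and over 9 alternative settings it ran from the first of these to 0.99999. Every choroid plexus marker counted in all 4 libraries, and some markers of epithelium, were also highest in WT 1. Krt18 had 59, 0, 1 and 0 counts, and Krt8 had 29, 0, 2 and 3. Folr1 had 67, 0, 8 and 4, and Sostdc1 had 106, 3, 4 and 8. Aqp1 had 192, 29, 28 and 8, and Otx2 had 358, 124, 71 and 125. At the thresholds that gave Cdh3, 2 of the 2 choroid plexus markers tested (Aqp1 and Otx2) were lower in cKO. So were 2 of the 7 meningeal and mesenchymal markers tested, where 0.669% of all genes were. Other epithelial markers did not set WT 1 apart from WT 2 in this way. Epcam had 25, 26, 18 and 21 counts, with the WT libraries almost equal. Both cKO libraries were below them, where 10.8% of all genes did so. Grhl3 had 5, 11, 9 and 7 counts, and Krt5, Krt14, Krt15 and Trp63 had 4 counts or fewer in every library. The 8 surface epithelium markers, of which 1 passed the filter, summed to 7.19 CPM in WT 1 and 1.97 to 2.39 CPM in the others. The part of these markers in the result was not tested. In bulk tissue, fewer cells of a type and less RNA per cell cannot be told apart.

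Cdh1 (ENSMUSG00000000303, chr8:106603351-106670246, + strand) lies beside Cdh3 on the same strand. It had 41 counts in WT 1 (2.38 CPM) and 0 in cKO 1, a level at least 14.5-fold lower against a floor of 3 counts, and the exact interval of the ratio begins at 11.3. This compares 1 library with 1 library and has no replicate check, and Cdh1 in WT 2 and cKO 2 was not analysed here. In the same table the choroid plexus genes Ttr, with 5071 and 23 counts, and Clic6, with 526 and 2 counts, were also far higher in WT 1 than in cKO 1.

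**Figure D3:**
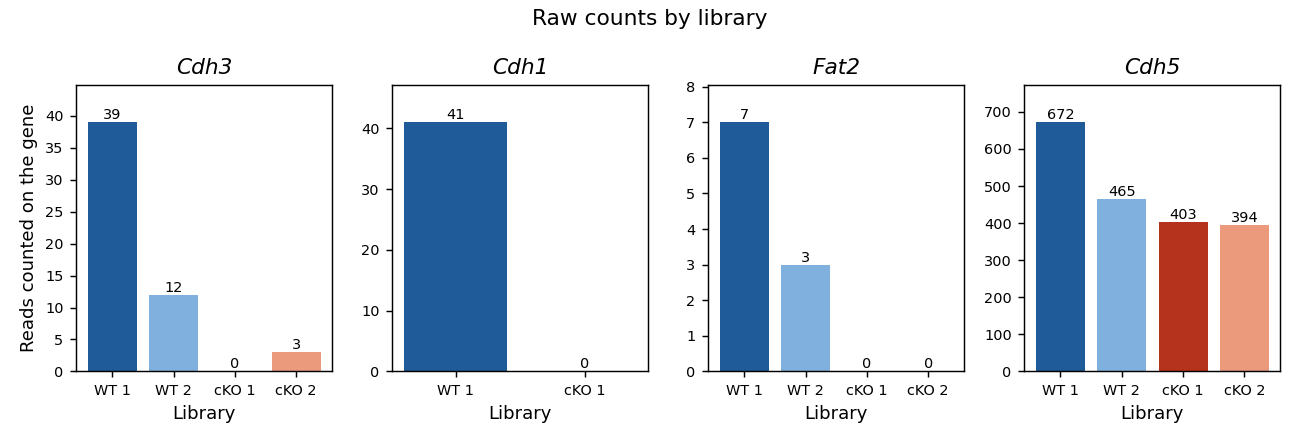
Reads counted in each library for Cdh3, Cdh1, Fat2 and Cdh5 (linear axes from 0, which differ between panels), with Cdh1 shown for WT 1 and cKO 1 only. Cdh3 has 39 and 12 counts in the WT libraries and 0 and 3 in the cKO libraries, and WT 1 is the highest library in each panel.

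The 13 type II genes summed to 222 and 226 CPM in the WT and 211 and 216 CPM in the cKO libraries. Of the 12 tested, 8 had log2 fold changes below 0 and 4 above, with a median of -0.20. Cdh24, the highest, had 1124, 1290, 1278 and 1597 counts and a log2 fold change of 0.24 (SE 0.17), with cKO 2 above the rest. Cdh20 had 60, 106, 107 and 95 counts, and WT 1 alone stood below the other libraries (log2 fold change 0.28, SE 0.34). Cdh22 differed more within cKO than between the groups, with 227 counts in cKO 1 and 444 in cKO 2, beside 303 and 338 in WT.

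Cdh5 (VE-cadherin), the cadherin of endothelial junctions, was covered by 672 reads in WT 1 and 465 in WT 2, against 403 in cKO 1 and 394 in cKO 2. The cKO libraries were almost equal and below both WT libraries. Mean levels were 31.9 ± 9.47 CPM in WT and 22.0 ± 0.0171 CPM in cKO (SD, n = 2 each), and the log2 fold change of -0.54 (SE 0.23) did not reach 2-fold. Without WT 1 it was -0.20, and without WT 2 it was -0.80. All 8 other endothelial markers fixed for the tissue check also had log2 fold changes below 0, from -0.64 (Flt1) to -0.12 (Cldn5), and 0 of them met the thresholds. Both cKO libraries were below both WT libraries for 4 of the 8, where 10.8% of all genes did so. For Pecam1, Cldn5, Tek and Esam the groups overlapped, and Cldn5 was highest in cKO 2. No marker of this list was at 0 in any library. They summed to 190 and 153 CPM in WT 1 and WT 2 and to 133 and 134 CPM in cKO 1 and cKO 2, the same order of groups as Cdh5. Their part in the result was not tested. Cdh11, a cadherin of mesenchyme that the cortex also expresses, had 780, 733, 670 and 506 counts (log2 fold change -0.38, SE 0.19). The meningeal and mesenchymal markers, highest in WT 1 as Cdh11 was, summed to 299, 58.3, 82.9 and 45.0 CPM, and their part in the result was not tested.

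Cdh9 and Cdh18, neuronal type II cadherins at low level here, had the next largest differences. Cdh9 had 20, 27, 10 and 14 counts (log2 fold change -0.97, SE 0.49) and Cdh18 had 15, 25, 13 and 9 (-0.86, SE 0.52). For both genes the cKO libraries lay below the WT libraries, on 27 reads or fewer in each library. Cdh12 had 22, 49, 31 and 16 counts, and its log2 fold change of -0.60 (SE 0.53) went to 0.05 without WT 2. Cdh7 had 224, 164, 188 and 100 counts (-0.46, SE 0.34), with cKO 2 below the rest. The other type II genes, Cdh6, Cdh8 and Cdh10, had log2 fold changes between -0.02 and 0.08, and in each of them WT 2 and cKO 1 were the higher libraries.

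The atypical cadherins were led by Cdh13 (T-cadherin), which is held in the membrane by a lipid anchor. It had 1197, 1808, 1524 and 1502 counts, with both cKO libraries between the WT libraries and a log2 fold change of 0.00. Cdh23, which forms the tip links of hair cells with Pcdh15, had 67, 118, 83 and 67 counts (-0.31, SE 0.35), again with WT 2 highest. Cdhr1, known from photoreceptors and the olfactory bulb, had 85, 194, 123 and 84 counts, so that the WT libraries differed from each other more than the groups did. Cdh17 with 9, 1, 7 and 3 counts, Cdh26 with 5, 0, 2 and 0, and the cadherin-related Cdhr3, Cdhr4 and Cdhr5 had 9 counts or fewer in every library and did not pass the filter, like the type II gene Cdh19 with 5, 2, 2 and 1. Cdhr2 passed the filter with 9 to 14 counts and a log2 fold change of 0.05.

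The 9 delta-protocadherins share a motif in their intracellular part. All 9 had log2 fold changes below 0, from -0.39 (Pcdh11x) to -0.05 (Pcdh8), with a median of -0.18 and none past the thresholds. cKO 2 was the lowest library for 7 of the 9. Pcdh11x had 120 and 123 counts in the WT libraries, 140 in cKO 1 but 48 in cKO 2. Pcdh9 had 432, 513, 523 and 265 counts. Pcdh7 had 354, 341, 371 and 189 counts. In these 3 genes cKO 1 lay at or above the WT libraries and cKO 2 well below them. Pcdh17, with 453, 458, 473 and 272 counts, and Pcdh19, with 1095, 1197, 1336 and 753 counts, had the same low library. Pcdh19, an epilepsy gene in people, is X-linked, as is Pcdh11x. WT 2, which had no Y-linked reads, was close to WT 1 for both, at CPM ratios of WT 1 to WT 2 of 0.969 for Pcdh19 and 1.03 for Pcdh11x. Pcdh10 differed from this order, with 1377, 1659, 1431 and 1267 counts, both cKO libraries below WT and a log2 fold change of -0.18 (SE 0.15). Pcdh8 with 633, 843, 703 and 732 counts, and Pcdh18 with 596, 556, 614 and 508, had log2 fold changes of -0.05 and -0.06. Pcdh1 was lowest in cKO 1, at 1018 counts against 1131, 1537 and 1448 in the others.

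Without cKO 2, 3 of the 9 delta-protocadherins were below 0 and their median log2 fold change was 0.07. Without cKO 1, 8 of the 9 were below 0, the median was -0.60, and Pcdh11x met the thresholds of the study at -1.33. The ratio of cKO 1 to cKO 2 ran from 0.687 to 2.85 over the 9 genes, and that of WT 1 to WT 2 from 0.779 to 1.14. The direction of the group as a whole therefore rested on the library cKO 2.

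**Figure D4:**
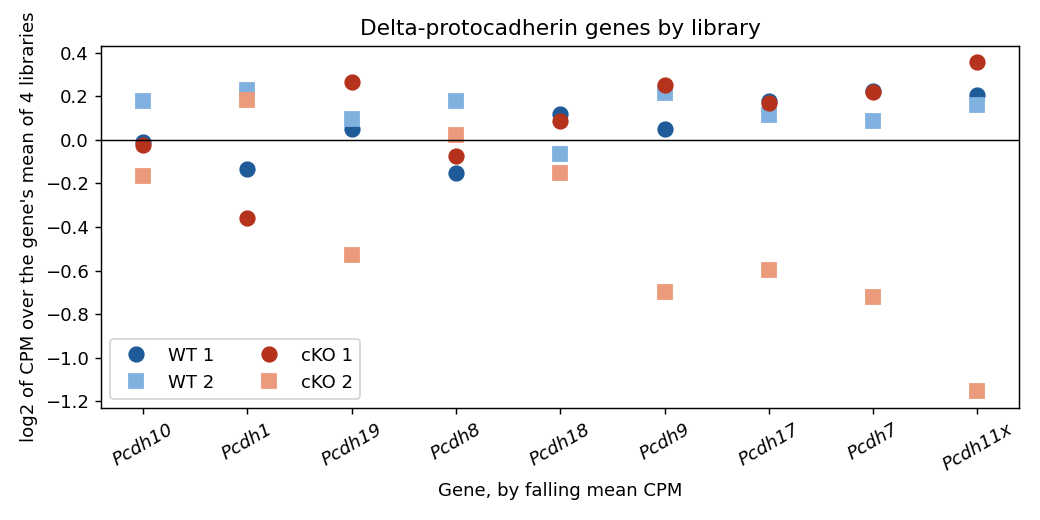
Log2 of each library's CPM over the gene's mean of 4 libraries, for the 9 delta-protocadherin genes ordered by level. cKO 2 is the lowest point for 7 of the 9 genes and lies furthest down for Pcdh11x, while cKO 1 lies with or above the WT libraries for most.

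The remaining protocadherins were low. Pcdh12, an endothelial protocadherin, had 130, 143, 114 and 117 counts (log2 fold change -0.25, SE 0.26), which gave it, with Cdh5, non-overlapping groups in the same direction. Pcdh15 had 61, 56, 62 and 45 counts and Pcdh20 had 71, 69, 99 and 52, with cKO 2 lowest in both.

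Of the giant cadherins, Celsr1 and Celsr2 had both cKO libraries above both WT libraries. They were the 2 such genes among the 40 cadherin genes tested, where 11.0% of all genes did so. Celsr1 had 4778, 5754, 6242 and 5857 counts, with a mean of 294 ± 26.7 CPM in WT and 334 ± 9.45 CPM in cKO (SD, n = 2 each). Its log2 fold change was 0.19 (SE 0.15, adjusted p = 0.9999 by edgeR). Celsr2 had 6669, 7953, 8054 and 8106 counts (0.13, SE 0.15). Celsr3, which is expressed in postmitotic neurons and needed for axon tracts, had 5349, 6618, 5783 and 6117 counts and a log2 fold change of -0.02 (SE 0.16). For all 3 genes WT 1 was the lowest library. The differences stayed far below 2-fold, and without WT 1 they were 0.10 for Celsr1 and 0.05 for Celsr2.

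Fat4 had 3081, 4132, 4172 and 3300 counts, and its partner Dchs1 had 6144, 7289, 6725 and 7273. Their log2 fold changes were 0.04 (SE 0.18) and 0.05 (SE 0.16), and in both the groups overlapped. Fat1 had 3387, 3242, 3845 and 3277 counts (0.09, SE 0.15), and Fat3 had 1750, 2729, 2683 and 1716 (-0.04, SE 0.25), with WT 1 and cKO 2 low and the other 2 libraries high. Dchs2 had 14, 25, 17 and 12 counts. Fat2, best known from cerebellar granule cells and skin, was too low to be tested. WT 1 had 7 counts, WT 2 had 3 and both cKO libraries had 0, at least 3.39-fold lower in cKO against a floor of 3 counts over the group. The exact interval of that ratio, with the counting error of the 10 WT reads included, begins at 2.28.

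Across the 40 genes tested, cKO 2 was the lowest library for 18 (45%), where it was lowest for 33.4% of all genes tested. WT 1 was lowest for 13 (32.5%, beside 21.1%), cKO 1 for 8 (20%, beside 27.3%) and WT 2 for 1 (2.5%, beside 18.1%). WT 2 was the highest library for 17 (42.5%, beside 17.6% of all genes), cKO 1 for 10 (25%, beside 23.7%), WT 1 for 8 (20%, beside 25.1%) and cKO 2 for 5 (12.5%, beside 33.6%). The summed level of all 47 genes was 2924 and 3313 CPM for WT 1 and WT 2, and 3227 and 3043 CPM for cKO 1 and cKO 2. The libraries of a group differed more in this sum than the groups did.

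The ratio of cKO 2 to cKO 1 moved with the span of the gene. Of 23 cadherin genes that span 100 kb or more, 20 (87%) were lower in cKO 2, with a median log2 ratio of -0.32 on a scale of CPM + 1. Of 17 shorter genes, 5 (29.4%) were lower, with a median of 0.06. Over all genes tested the shares were 67.5% of 2214 long genes and 45.4% of 13931 shorter ones. Spearman's rho between span and ratio was -0.46 over the 40 cadherin genes and -0.28 over 16145 genes, and for the ratio of WT 2 to WT 1 it was 0.24 and 0.09. Genes of a library share its depth and quality and are not independent, and the limit of 100 kb was chosen after the values were seen. Pcdh11x, Pcdh9 and Pcdh7, the delta-protocadherins with the lowest ratios, are all long genes. Cdh13 and Cdh4 are long genes too, and their CPM ratios of cKO 1 to cKO 2 were 0.991 and 0.953.

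**Figure D5:**
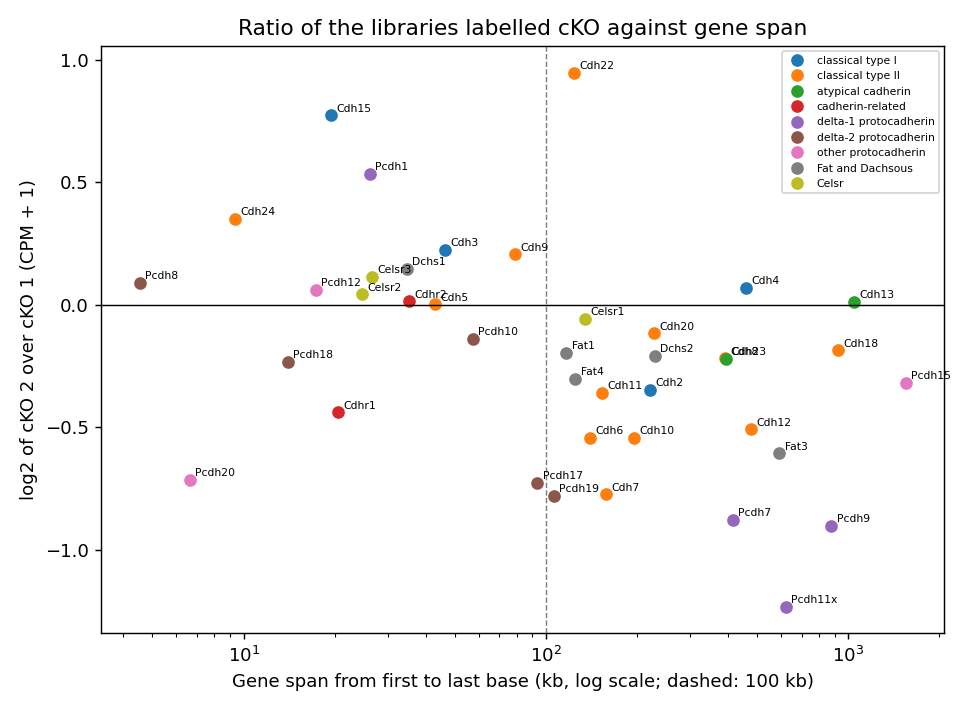
Log2 ratio of cKO 2 to cKO 1 (CPM + 1) against gene span in kilobases (log axis) for the 40 cadherin genes tested, coloured by subfamily, with a dashed line at 100 kb. Most genes to the right of the line lie below 0, with Pcdh11x lowest, and Cdh22 is the long gene furthest above 0.

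The genes that work with cadherins were given by a list of 30, of which 28 were tested. Log2 fold changes were below 0 for 14 and above 0 for 14, with a median of 0.00, and 1 gene met the thresholds on the lower side, where 0.669% of all genes did. This was Snai1, a transcriptional repressor of Cdh1. Snai1 had 29, 17, 9 and 9 counts and, like Cdh3, passed the filter through its WT counts only. Its log2 fold change was -1.36 (SE 0.54, unadjusted p = 0.034 by edgeR). No partner gene met them by DESeq2, when 10 counts in every library were asked for, or without WT 1, cKO 1 or cKO 2, and 2 did without WT 2. Of the 10 catenins and junction linkers tested, 5 were below and 5 above 0. Ctnnb1 (beta-catenin), the most abundant, had 12558, 15457, 15402 and 14162 counts (0.07, SE 0.16). Ctnna1 (alpha-E-catenin) was above both WT libraries in cKO (0.16, SE 0.14), and Ctnna2, its neuronal relative, was below both (-0.22, SE 0.16). Of the 28 partner genes tested, 1 was above both WT libraries in cKO and 3 were below, where 11.0% and 10.8% of all genes did so. Among the planar polarity partners of the Celsr proteins, 4 of 11 were below 0. Vangl2 had 5065, 5023, 5415 and 5087 counts (0.04, SE 0.15), while the Celsr partner Fzd6 had 213, 188, 132 and 141 counts and a log2 fold change of -0.57 (SE 0.25) that did not reach 2-fold. Adam10, the protease that sheds N-cadherin, had 1786, 1823, 1923 and 1167 counts, again with cKO 2 lowest.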

How the data were processed

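RNA-seq libraries of E13 cortical tissue were made and sequenced by the authors on an Illumina platform, who deposited raw counts of reads per gene for 4 libraries, and in a further table for WT 1 and cKO 1. Per the labels, Bowtie2 2.2.3, TopHat2 2.0.12 and HTSeq 0.6.0 were used with mm9, but the positions in the tables match GRCm38: of 27232 genes found in GENCODE M21, 97.3% start or end within 1 base of it. Strandedness is not given in the sources used here, so reads of overlapping genes cannot be told apart. The deposited normalized values, fold changes and p-values of the authors' own comparison were not used. Entries with a blank gene (11 of 27304 in the larger table, 0.0403%) were left out. For the 21342 genes present in each table, the 2 tables give equal counts.

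WT and cKO counts were compared by the quasi-likelihood test of edgeR 4.0.16 under R 4.3.3 (filterByExpr, TMM scaling, no covariate, Benjamini-Hochberg over 16145 genes), after a test on simulated counts. The unadjusted p of at most 0.05 and 2-fold limit are those of the study. CPM is the count scaled to the library's total over the genes tested and to its TMM factor. The CPM of Cdh1 and of the floor of 3 counts, and the exact ratios, used all counted reads instead. Exon length is the GENCODE M21 union of exons, since the tables give none. Intervals are exact (scipy 1.17.1, 95%) and, like the floor of 3 counts, cover counting error only. Ratios of single libraries used a pseudocount of 1 CPM. Any cadherin gene could be named, and full values go to those past the thresholds, the 10 highest per length, the 5 largest differences each way, Cdh1, Cdh3 and genes with groups apart by at least 1.5-fold. Other genes come from fixed lists of partners and of cell type markers. The genes and lists were chosen with earlier results of these data known. Alternatives were DESeq2 1.42.0, other scalings and filters, a replicate block, a stricter p and leaving out each library.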

Additional observations from a re-analysis of the deposited data

How the results depend on the processing

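With 2 libraries a group, only large or steady differences can be seen, and genes with a handful of reads depend on the filter. The count of 1 cadherin gene past the thresholds of the study stayed 1 with other scalings, DESeq2, the replicate block and an unadjusted p of at most 0.01. It was 2 without the filter on low counts, which let Fat2 in, 0 when 10 counts in every library were asked for, since Cdh3, Cdh15 and Cdh18 then were not tested, and 1 to 2 with each library left out in turn, 2 without cKO replicate 1, where Pcdh11x was -1.33. The count with an adjusted p under 0.05 was 0, and 1 without the filter, and 0 to 1 with a library left out (1 without WT replicate 2). The partner genes past the thresholds numbered 1, but 0 by DESeq2 and 0 with 10 counts in every library, and 0 to 2 with a library left out (2 without WT replicate 2, Snai1 and Snai2). Where a library is left out, the lone library of its group is assumed to vary like the other group.

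The labels do not say that equal replicate numbers share a litter or batch. The deviations of WT 1 and cKO 1 from their groups correlated at 0.139 over genes, from 2 pairs. With the replicate block, 1 cadherin gene met the thresholds and 0 had an adjusted p under 0.05, and Cdh3 was -3.85 (adjusted p = 0.159 by edgeR).

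Leaving out a library turned the sign of the log2 fold change in at least 1 fit for 29 of the 40 cadherin genes tested. Among the genes described in full these were 10, with ranges of -1.13 to 0.048 for Cdh12, -0.76 to 0.95 for Cdh15, -0.23 to 0.13 for Cdh2, -0.045 to 0.71 for Cdh20, -0.39 to 0.020 for Cdh4, -0.13 to 0.11 for Celsr3, -0.032 to 0.14 for Dchs1, -0.014 to 0.19 for Fat1, -0.12 to 0.23 for Fat4 and -0.21 to 0.14 for Pcdh8. The other settings gave 99 values for the genes named in full, and all 99 kept their direction and their side of the thresholds. The cause was not tested. Of the 10 genes highest per exon length, 7 were among the 10 highest per coding length, taken from GENCODE M21 and chosen after the data were seen. The planned length from RefSeq proteins was not run.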

Other observations

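Without cKO 1, 10 of 40 cadherin genes had an unadjusted p of at most 0.05 by edgeR (25%, 8 of the 10 lower in cKO), where 15% of all 16915 genes tested had one. None of the 10 had an adjusted p under 0.05. Exon length ran with the ratio of cKO 2 to cKO 1 as gene span did, with a Spearman's rho of -0.41 over 40 cadherin genes and -0.32 over 16120 genes. Ventral telencephalon markers summed to 646 CPM in cKO 1 and to 972 to 1012 CPM in the other libraries, with Nkx2-1 at 262 counts in cKO 1, 1166 in cKO 2 and 1407 and 1035 in the WT libraries.

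The family was spread over many chromosomes, with 7 of the 47 genes on chromosome 8, besides Cdh1, and 6 each on chromosomes 14 and 15. The type II genes Cdh6, Cdh9, Cdh10, Cdh12 and Cdh18 all lie on chromosome 15, and Cdh5, Cdh8 and Cdh11 on chromosome 8. The 5 on chromosome 15 had log2 fold changes of -0.02, -0.97, 0.08, -0.60 and -0.86, in the order given. Diencephalon markers, 5 of 8 tested, had a median log2 fold change of -0.24, and 0 met the thresholds.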
